A study of Homo sapiens with 6 samples.

Results

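The mitochondrial genome was represented by 37 genes among the 58735 of the expression table, taken as every gene whose chromosome is given as MT. By the table's gene type they comprised 13 mRNA genes, 2 rRNA genes and 22 tRNA genes. Of these, 28 lay on the plus strand of the reference (12 mRNA, 2 rRNA and 14 tRNA genes) and 9 on the minus strand (MT-ND6 and 8 tRNA genes). By the usual names, the former are the heavy-strand-coded genes and the latter the light-strand-coded genes. All 37 had the same coordinates in GENCODE release 29 on GRCh38.

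RNA sequencing had been performed in MM.1S, an established human multiple myeloma cell line, to find genes downstream of the arginine methyltransferase PRMT1. The control cells were transfected with a non-targeting siRNA (si-NC) and the PRMT1 KD cells with an siRNA against PRMT1, both at 100 nM with a lipid reagent, and RNA was collected 72 h later. There were 3 libraries in each group, with no further genotype or agent named. Which of the PRMT1 siRNAs was used is not named. The replicates are described as dependent biological replicates, without a statement of how they depend on each other. The p-values therefore measure the spread between these libraries, which may not be that between independent experiments.

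Mitochondrial DNA is a small circle present in many copies per cell, and nearly all of its length is transcribed from both strands into long precursors. The tRNAs sit between the mRNAs and rRNAs, and their excision by RNase P and ELAC2 frees the RNAs on either side. The heavy-strand precursor yields both rRNAs and nearly all mRNAs, whereas the light-strand precursor yields the MT-ND6 mRNA and a few tRNAs, and the rest of it is antisense RNA that is rapidly degraded. The mRNAs encode core subunits of respiratory complexes I, III and IV and of ATP synthase (complex V), and apart from MT-ND6 they carry short poly(A) tails.

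This arrangement was visible in the table itself. Of the 15 mRNA and rRNA genes, 14 lay within 3 bases of a tRNA gene, and 5 pairs of neighbours overlapped. Light-strand-coded genes were richer in G on their own sense strand: G made up 35.6% of MT-ND6 but 6.28% to 16.2% of the other 12 mRNA genes, and 23.5% to 36.1% of the light-strand tRNA genes but 10.3% to 19.1% of the heavy-strand ones. The 4 light-strand tRNA genes with the most reads are shown because the results below turn on them. They are MT-TN (asparagine, MT:5657-5729), MT-TC (cysteine, MT:5761-5826), MT-TY (tyrosine, MT:5826-5891) and MT-TP (proline, MT:15956-16023), printed in the sense of the tRNA, from the minus strand of GRCh38, with the anticodon in capitals.
MT-TN: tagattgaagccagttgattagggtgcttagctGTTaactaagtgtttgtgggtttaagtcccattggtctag
MT-TC: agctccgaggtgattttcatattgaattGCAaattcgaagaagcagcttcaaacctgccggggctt
MT-TY: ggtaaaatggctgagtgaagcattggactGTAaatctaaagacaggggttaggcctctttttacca
MT-TP: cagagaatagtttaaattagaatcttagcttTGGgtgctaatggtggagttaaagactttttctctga
MT-TN and MT-TC are 31 bases apart, a gap that holds the origin of light-strand DNA replication, and MT-TC and MT-TY share 1 base. The longest overlap lies on the plus strand at MT:8527-8572, where 46 bases belong to both MT-ATP8 and MT-ATP6, that is 22.2% of MT-ATP8 and 6.75% of MT-ATP6. It is shown because reads within it could be given to either gene, with the start codon of MT-ATP6 and the stop codon of MT-ATP8 in capitals.
MT-ATP8/MT-ATP6: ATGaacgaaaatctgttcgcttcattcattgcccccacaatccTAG
How reads in such overlaps were assigned, and whether the counting used the strand, is not given in the sources used here. Without strand, reads of MT-ND6 or a light-strand tRNA cannot be told apart from antisense reads of the opposite strand.

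PRMT1 itself, the targeted gene, was at 61.7, 62.8 and 58.9 FPKM (fragments per kilobase of gene, scaled to library size) in the control libraries and 13.3, 14.0 and 12.5 FPKM in the PRMT1 KD libraries, a log2 fold change of -2.13 (SE 0.0552, limma adjusted p = 2.77e-05). Between 14439217 and 16465026 reads lay on genes per library. All 10 plasma cell markers averaged at least 1 FPKM, summing to 1407 to 1487 FPKM in the controls and 1394 to 1559 FPKM after knockdown. Their log2 fold changes lay below 0 in 5 and above 0 in 5, and 1 of the 10 changed, SLAMF7, a surface receptor, which fell from 38.0 to 23.8 FPKM (limma adjusted p = 0.00515), beside 2.05% of all genes tested. Of 14 markers of other cell types, CD3E alone averaged at least 1 FPKM, HBB, MS4A1 and PPBP had no reads, and the list summed to 34.0 to 37.2 FPKM and 37.8 to 39.9 FPKM. These levels were measured beside the mitochondrial results, and their part in them was not tested.

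Reads on mitochondrial genes took a smaller share of every PRMT1 KD library than of any control library. The 37 genes held 6.13%, 6.15% and 6.23% of reads on genes in the controls and 5.39%, 5.83% and 5.90% in PRMT1 KD, with Wilson 95% intervals no wider than 0.0121 percentage points to each side. The groups did not overlap (6.17% ± 0.0517 against 5.71% ± 0.274, SD, n = 3), and the two-sided exact permutation p was 0.1, the smallest that 3 libraries against 3 allow (0.171 after Benjamini-Hochberg adjustment over 12 shares and ratios). As a share of summed FPKM, which weights each gene per length, the difference had the same direction, at 20.5%, 20.7% and 20.9% against 18.6%, 19.8% and 20.0%. In bulk RNA, fewer mitochondrial genomes per cell, less RNA per genome and more RNA from nuclear genes cannot be told apart in such a share.

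The 3 kinds of RNA held very unequal shares of reads, the mRNA genes by far the largest. The mRNA genes held 5.14%, 5.16% and 5.13% of reads in the controls and 4.55%, 4.89% and 4.83% in PRMT1 KD, with no overlap (exact permutation p = 0.1). The rRNA genes held 0.964%, 0.960% and 1.07% against 0.821%, 0.907% and 1.03%, and here the groups overlapped (exact permutation p = 0.4). Set against mRNA reads, rRNA reads differed little between the groups (log2 difference -0.0063, exact permutation p = 0.8). The tRNA genes held only 0.0334%, 0.0350% and 0.0342% against 0.0269%, 0.0300% and 0.0320%, again without overlap (exact permutation p = 0.1). For the 9 light-strand-coded genes the gap was wide relative to the spread, at 0.123%, 0.115% and 0.111% in the controls against 0.0897%, 0.0933% and 0.0912% (exact permutation p = 0.1, adjusted 0.171). Most of these light-strand reads lay on MT-ND6, 15405 of 20306 in control 1 and 9693 of 14063 in PRMT1 KD 3. PRMT1 KD 1 was the lowest of the 6 libraries in each of these shares.

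**Figure D1:**
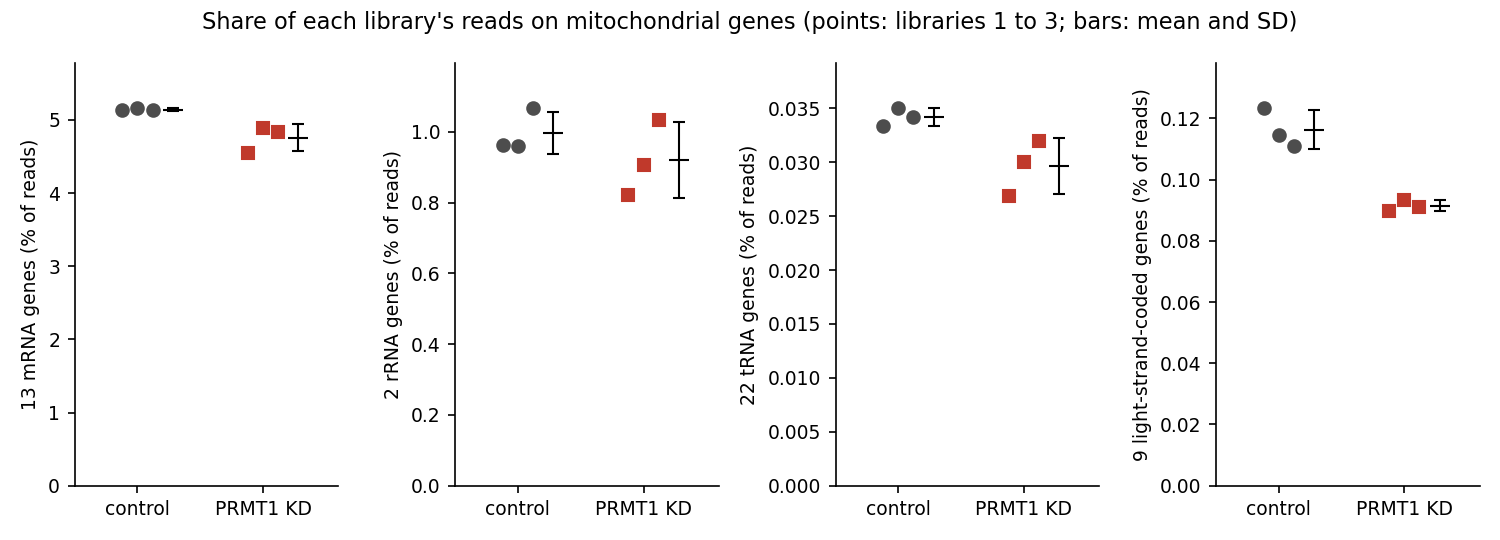
Percent of each library's reads on genes that lay on the mRNA, rRNA, tRNA and light-strand-coded genes of the mitochondrial genome, with points for libraries 1 to 3 of each group and bars for the mean and SD. The PRMT1 KD points lie below all control points in every panel but that of the rRNA genes, where control 1 (0.964%) and control 2 (0.960%) lie below PRMT1 KD 3 (1.03%).

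Gene by gene, the differences were small and few passed the test over the whole table. Expression was compared on log2(FPKM + 1) with limma over the 13585 genes that averaged at least 1 FPKM, a scale that understates the change of low genes. With an adjusted p under 0.05 as the call, 279 genes (2.05%) changed, 134 lower (0.986%) and 145 higher (1.07%) after knockdown. That split was 133 lower and 222 higher on values rescaled to TPM, and 145 lower and 90 higher on values scaled to equal medians. Of the mitochondrial genes, 35 passed the filter and 1 of them changed, the tRNA gene MT-TC, a share close to the 2.05% of all genes. At an unadjusted limma p under 0.05 there were 12 of the 35 (9 lower and 3 higher) beside 19.5% of all genes tested.

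The spread of the mitochondrial genes around 0 was one-sided for mRNAs and not for tRNAs. The log2 fold change was below 0 in 12 of 13 mRNA genes and in 10 of 20 tRNA genes tested, beside 6442 of all 13585 genes. Its median was -0.13 over the 35 genes and -0.13 over the mRNA genes (-0.36 to 0.0030), beside 0.0095 over all genes tested. Without PRMT1 KD 1 the median over the mRNA genes was -0.083, and without any other single library it lay between -0.15 and -0.13. All these genes were measured in the same libraries, so they are not separate observations of the knockdown. The groups did not overlap, with PRMT1 KD lower, in 10 of the 35 genes, beside 12.3% of all genes tested, and with PRMT1 KD higher in none of the 35, beside 13.6%. With voom, the limma method for read counts, run on reads worked back from the FPKM values, 6 of the 35 genes were called, all lower (MT-ND4, MT-ATP6, MT-TC, MT-ND6, MT-CYB and MT-TY), beside 927 of all genes (6.82%).

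**Figure D2:**
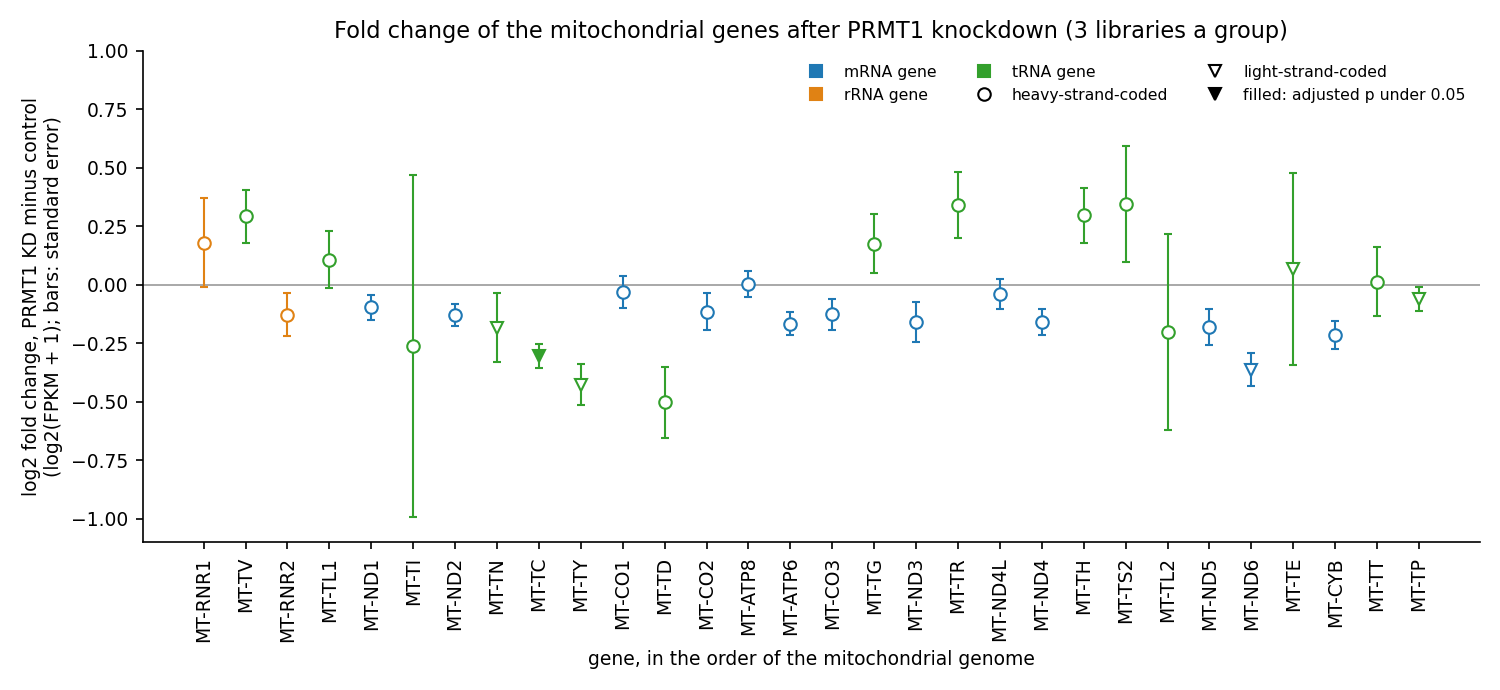
Log2 fold change of PRMT1 KD against control on log2(FPKM + 1), with its standard error, for the 30 mitochondrial genes averaging at least 10 reads, in genome order. Colours give the kind of gene, triangles mark light-strand-coded genes, and MT-TC (-0.30) is the single filled symbol, the mRNA genes lying between -0.36 (MT-ND6) and 0.0030 (MT-ATP8).

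Among the mRNA genes, the light-strand-coded MT-ND6 (ENSG00000198695, MT:14149-14673), a membrane subunit of complex I, lay farthest below its control level. It was at 1772, 1584 and 1488 FPKM in the controls and 1259, 1287 and 1212 FPKM in PRMT1 KD, so that every PRMT1 KD library lay below every control. The log2 fold change was -0.36 (SE 0.0701), with a limma adjusted p of 0.0556 over all genes, just above the threshold. It passed the threshold on values rescaled to TPM (adjusted p = 0.0467), on TPM set over genes outside the mitochondrial genome (0.0405) and with voom (0.00192). MT-ND6 did not pass in the remaining 12 alternatives. The limma adjusted p was 0.309 with no filter, 0.0839 with a filter at 10 reads and 0.0628 with the replicate block. With any 1 library left out it ran from 0.0589 to 0.17.

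The other 6 complex I mRNAs, all heavy-strand-coded, had log2 fold changes of -0.18 to -0.039, and none passed the test. MT-ND4 (ENSG00000198886, MT:10760-12137), like MT-ND2 and MT-ND5 a proton-pumping membrane subunit, was at 4365, 4121 and 4086 FPKM against 3830, 3860 and 3570 FPKM (log2 fold change -0.16, SE 0.0552, limma adjusted p = 0.177). MT-ND2 (MT:4470-5511) was at 1844, 1816 and 1845 FPKM against 1607, 1718 and 1710 FPKM (-0.13, SE 0.0459, limma adjusted p = 0.186). In both genes the groups did not overlap, and likewise in MT-ND3 (MT:10059-10404), where PRMT1 KD 1, at 1149 FPKM, lay well below PRMT1 KD 2 and 3, at 1401 and 1413 FPKM, and these lay just below the lowest control, at 1418 FPKM. In MT-ND1, MT-ND4L and MT-ND5 the groups overlapped. Their means ± SD were 1873 ± 98.9, 3973 ± 164 and 1490.0 ± 137 FPKM in the controls and 1750.5 ± 41.5, 3871 ± 252 and 1311 ± 65.5 FPKM in PRMT1 KD (n = 3). MT-ND4L and MT-ND4 share 7 bases, read in different frames.

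MT-CYB (ENSG00000198727, MT:14747-15887), the cytochrome b of complex III and its only mitochondrially encoded subunit, was at 1161, 1118 and 1010 FPKM in the controls and 925, 942 and 958 FPKM in PRMT1 KD. The groups did not overlap, and the log2 fold change was -0.22 (SE 0.0597, limma adjusted p = 0.117).

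The mRNAs of complex IV, the cytochrome c oxidase that passes electrons to oxygen, were the highest of the mitochondrial genome per length. MT-CO1 (ENSG00000198804, MT:5904-7445), its catalytic subunit, was at 14022, 14245 and 13931 FPKM in the controls and 12639, 14235 and 14485 FPKM in PRMT1 KD. PRMT1 KD 1 lay below all 3 controls and PRMT1 KD 3 above them, and the log2 fold change was -0.032 (SE 0.0682, limma adjusted p = 0.842). MT-CO3, a structural core subunit, was at 7595, 7853 and 7811 FPKM against 6545, 7374 and 7421 FPKM (-0.13, adjusted p = 0.337), without overlap. MT-CO2, which receives electrons from cytochrome c, was at 6403, 6819 and 6850 FPKM against 5620, 6201 and 6763 FPKM (-0.11, adjusted p = 0.463), with PRMT1 KD 3 inside the control range.

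ATP synthase draws its mitochondrially encoded subunits from one overlapping message. MT-ATP6 (ENSG00000198899, MT:8527-9207), part of the proton channel, was at 3705, 3740 and 3586 FPKM in the controls and 3282, 3371 and 3183 FPKM in PRMT1 KD, without overlap (log2 fold change -0.17, SE 0.0476, limma adjusted p = 0.125). MT-ATP8 (MT:8366-8572), a small membrane subunit, was listed at 103, 105 and 109 FPKM against 99.2, 112 and 107 FPKM, and its log2 fold change was 0.0030 (SE 0.0548, limma adjusted p = 0.983). MT-ATP8 was the lowest of the 13 mRNA genes per length in every library, 348 reads per library on average beside 37699 on MT-ATP6. The genes share 46 bases, 22.2% of MT-ATP8, and how reads there were assigned is not given. The level and fold change of MT-ATP8 are uncertain to that extent.

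**Figure D3:**
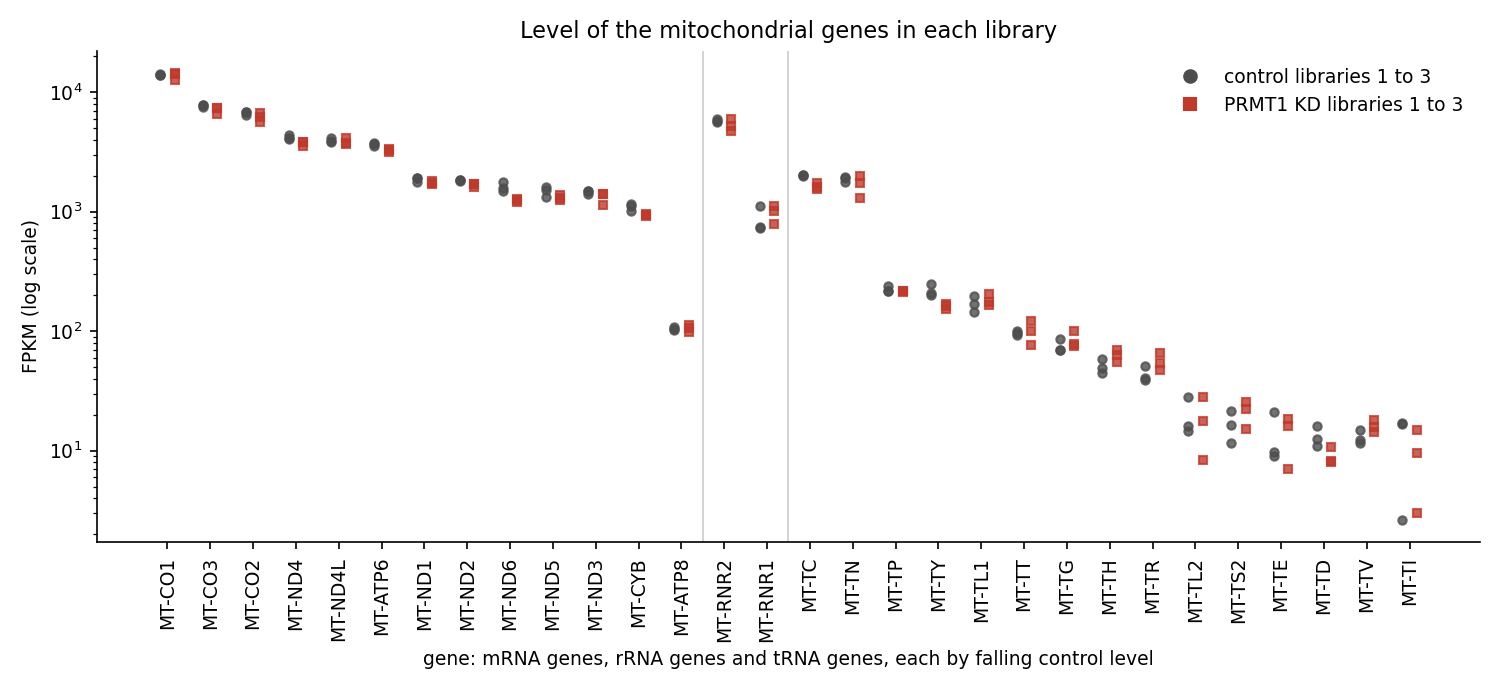
FPKM of the 30 mitochondrial genes averaging at least 10 reads in each of the 6 libraries, on a log axis, with mRNA, rRNA and tRNA genes each in order of falling control level. The levels run from MT-CO1, near 14066 FPKM in the controls, to MT-TI, where control 3 (2.63 FPKM) stands apart from control 1 (16.6 FPKM) and control 2 (17.1 FPKM).

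Within the mRNA pool, that is among reads on the 13 mRNA genes, MT-CO1 took 42.3%, 42.7% and 42.9% in the controls and 43.4%, 44.7% and 45.7% in PRMT1 KD, higher in each PRMT1 KD library than in any control. MT-ND6 took 1.82%, 1.62% and 1.56% against 1.47%, 1.38% and 1.30%, lower in each. For the remaining 11 genes the groups overlapped. Since these shares sum to a fixed total, a lower share of some genes raises that of others.

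The ratio of MT-ND6 to the summed FPKM of the 12 heavy-strand-coded mRNA genes does not depend on how the libraries were scaled. It was 0.0369, 0.0324 and 0.0312 in the controls and 0.0296, 0.0277 and 0.0262 in PRMT1 KD. The groups did not overlap, with a difference of -0.27 on the log2 scale, or 0.832-fold (exact permutation p = 0.1, the smallest possible, and 0.171 adjusted over 12 values). The difference was -0.24 with the mean log2 FPKM of the 12 genes as the denominator and -0.24 with reads of all light-strand-coded over all heavy-strand-coded genes, also without overlap. Both versions rest largely on the same MT-ND6 reads, which made up most light-strand reads (15405 of 20306 in control 1, 9693 of 14063 in PRMT1 KD 3). For light-strand tRNA reads alone, set against heavy-strand mRNA reads, the groups overlapped (exact permutation p = 0.2). In the ratio of MT-ND6 to the 12 heavy-strand-coded mRNA genes, control 1 was the highest library and PRMT1 KD 3 the lowest.

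The rRNA genes encode the RNA core of the mitochondrial ribosome and lie next to each other near the heavy-strand promoter, with MT-TV between them. MT-RNR1 (ENSG00000211459, MT:648-1601), the small-subunit rRNA, was at 731, 751 and 1113 FPKM in the controls and 787, 1008 and 1121 FPKM in PRMT1 KD. Control 3 stood apart from controls 1 and 2 and lay at the level of PRMT1 KD 3. MT-RNR2 (ENSG00000210082, MT:1671-3229), the large-subunit rRNA, was at 5698, 5672 and 5985 FPKM against 4720.0, 5219 and 6020 FPKM, with the lowest and the highest value both in PRMT1 KD.

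Neither rRNA gene passed the test, and both values moved with single libraries. The log2 fold change was 0.18 for MT-RNR1 (SE 0.190, limma adjusted p = 0.648) and -0.13 for MT-RNR2 (SE 0.0906, limma adjusted p = 0.484). With a library left out it ran from 0.069 (without PRMT1 KD 3) to 0.37 (without control 3) for MT-RNR1 and from -0.22 (without PRMT1 KD 3) to -0.045 (without PRMT1 KD 1) for MT-RNR2. The MT-RNR1 to MT-RNR2 ratio was 0.128, 0.132 and 0.186 in the controls and 0.167, 0.193 and 0.186 in PRMT1 KD, overlapping through control 3 (difference 0.31 on the log2 scale, exact permutation p = 0.2). Reads on rRNA per read on mRNA were 0.188, 0.186 and 0.208 against 0.181, 0.185 and 0.214, a log2 difference of -0.0063 that is small beside the SD of 0.0889 and 0.131 (n = 3, exact permutation p = 0.8).

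Most tRNA reads lay on a few light-strand tRNA genes, while the light-strand genes MT-TQ, MT-TA, MT-TS1 and MT-TE averaged at most 15.0 reads per library. MT-TN, MT-TC and MT-TY together held 78.7% to 85.2% of tRNA reads in the 6 libraries. MT-TC and MT-TN averaged 2017 and 1881 FPKM in the controls, per length slightly above MT-ND1 (1873 FPKM). In reads they averaged 1921 and 2062.5 over the 6 libraries, far below MT-ND1 at 27538. These genes are 66, 73 and 956 bases long, so FPKM was not taken to rank their abundance. The highest heavy-strand tRNA gene, MT-TL1 (leucine), averaged 170 FPKM in the controls. The table does not record whether the tRNA reads came from mature tRNAs, from uncut precursors or from antisense RNA.

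MT-TC (ENSG00000210140), the cysteine tRNA gene, was at 2028, 2041 and 1982 FPKM in the controls and 1561, 1620 and 1727 FPKM in PRMT1 KD, from 1539 to 2217 reads per library. It fell by 0.30 on the log2 scale (SE 0.0516, limma adjusted p = 0.0434), to 81.1% of the control mean, with every PRMT1 KD library below every control. The call was lost with any of the 6 libraries left out (limma adjusted p from 0.0631 to 0.181) and with no filter on low genes (0.405). It was also lost with a filter at 10 reads (0.101), without the trend (0.0845) and with the replicate number as a block (0.0711).

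Its neighbours differed in how far apart the groups lay. MT-TY (ENSG00000210144), the tyrosine tRNA gene, was at 250, 208 and 200 FPKM against 161, 155 and 170 FPKM, without overlap (log2 fold change -0.43, SE 0.0875, limma adjusted p = 0.0629). MT-TN (ENSG00000210135), the asparagine tRNA gene on the other side of the replication origin, was at 1763, 1966 and 1914 FPKM against 1307, 1741 and 1993 FPKM. For MT-TN the groups overlapped, since PRMT1 KD 3 was the highest of the 6 libraries and PRMT1 KD 1 the lowest (-0.18, SE 0.146, limma adjusted p = 0.533). It was -0.012 without PRMT1 KD 1 and -0.32 without PRMT1 KD 3. MT-TP, the proline tRNA gene at the far end of the genome, differed little, at 215, 240 and 219 FPKM against 216, 217 and 212 FPKM (-0.062, SE 0.0510, limma adjusted p = 0.545). MT-TE, the glutamate tRNA gene next to MT-ND6, had 15.0 reads per library and a log2 fold change of 0.066 (SE 0.410, limma adjusted p = 0.953).

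Among the 10 heavy-strand tRNA genes averaging at least 10 reads, the log2 fold change was above 0 in 7 and none passed the test. The valine, arginine and histidine genes MT-TV (0.29), MT-TR (0.34) and MT-TH (0.30) had unadjusted limma p of 0.0343, 0.0451 and 0.0382 and adjusted p of 0.215, 0.243 and 0.225, with overlapping groups. MT-TH was at 58.6, 49.4 and 44.7 FPKM in the controls and 69.3, 63.4 and 55.2 FPKM in PRMT1 KD. The aspartate gene MT-TD lay the other way, at 16.0, 10.9 and 12.5 FPKM against 8.02, 8.17 and 10.6 FPKM, without overlap, on 8 to 18 reads per library (-0.50, SE 0.150, limma adjusted p = 0.135). MT-TL1, MT-TG (glycine), MT-TT (threonine) and MT-TS2 (serine) had values of 0.11, 0.17, 0.013 and 0.35, and MT-TI (isoleucine) and MT-TL2 (leucine) of -0.26 and -0.20, each with an adjusted p of at least 0.487.

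The 7 remaining tRNA genes averaged under 10 reads per library. Of these, MT-TF, MT-TM, MT-TW, MT-TA and MT-TS1 passed the filter, with log2 fold changes from -0.88 (MT-TS1, SE 0.312) to 1.11 (MT-TM, SE 0.597) and limma adjusted p from 0.188 to 0.820. MT-TQ had 4 libraries without reads and did not pass. MT-TK had no reads in any library, which at 3 reads allows up to 2.59 to 2.98 FPKM, counting error only.

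Set against mRNA reads, the tRNA classes of the 2 strands lay on opposite sides. Light-strand tRNA reads per heavy-strand mRNA read were 0.00590, 0.00613 and 0.00609 in the controls and 0.00509, 0.00537 and 0.00594 in PRMT1 KD, overlapping through PRMT1 KD 3 (0.903-fold, exact permutation p = 0.2). Heavy-strand tRNA reads per heavy-strand mRNA read were 0.000720, 0.000765 and 0.000673 against 0.000910, 0.000848 and 0.000770, all higher in PRMT1 KD (1.17-fold, exact permutation p = 0.1, adjusted 0.171). These heavy-strand tRNA reads numbered 548 to 665 per library. All tRNA reads per mRNA read overlapped between groups (0.935-fold, exact permutation p = 0.2).

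**Figure D4:**
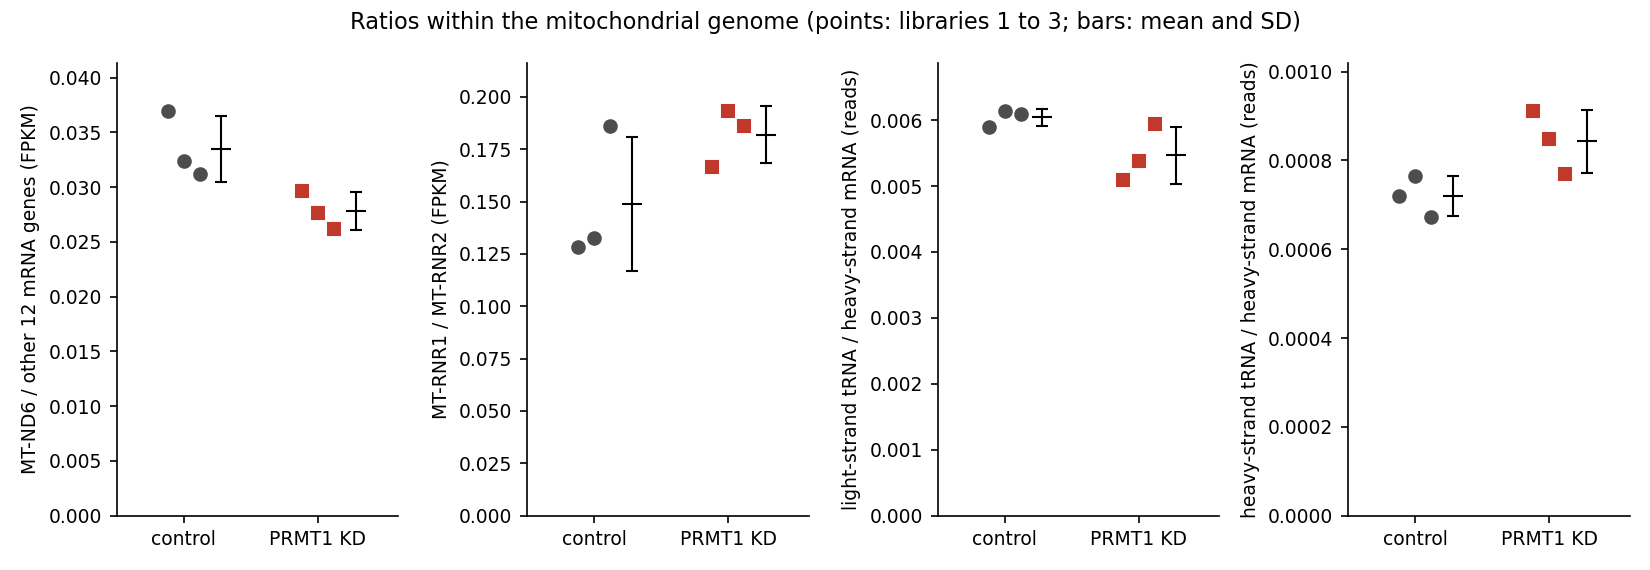
Ratios within the mitochondrial genome per library, with points for libraries 1 to 3 and bars for the mean and SD: MT-ND6 over the other 12 mRNA genes, MT-RNR1 over MT-RNR2, and light-strand and heavy-strand tRNA over heavy-strand mRNA. PRMT1 KD lies wholly below control in the first panel (0.0262 to 0.0296 against 0.0312 to 0.0369) and wholly above it in the last, and the groups overlap in the middle panels.

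The nuclear genes that copy, transcribe and process mitochondrial DNA were read from lists of known genes. Of 10 genes of mitochondrial transcription, all tested, none changed by limma adjusted p, beside 2.05% of all genes. Voom called none, beside 6.82%, and 1 had an unadjusted limma p under 0.05, beside 19.5%. That gene was MRPL12, a ribosomal protein also reported to bind the mitochondrial RNA polymerase, at 42.3, 38.7 and 33.4 FPKM in the controls and 33.5, 30.9 and 20.7 FPKM in PRMT1 KD (log2 fold change -0.44, SE 0.177, adjusted p = 0.238, and -0.23 without PRMT1 KD 3). The next lowest p values belonged to TFB2M (-0.13), the transcription initiation factor, and MTERF4 (-0.10).

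Of 20 genes of replication and maintenance, 19 were tested and LIG3, the DNA ligase that seals nicks in mitochondrial as well as nuclear DNA, rose from 10.9, 11.1 and 10.2 FPKM to 14.4, 14.6 and 14.6 FPKM (log2 fold change 0.41, SE 0.0511, limma adjusted p = 0.0240). This was 1 of 19, beside 2.05% of all genes, and voom called 2 of them, beside 6.82%. The limma call of LIG3 was lost without control 1 (adjusted p = 0.127), control 2 (0.0889) or any PRMT1 KD library (0.0631 to 0.112), with no filter (0.0537) and without the trend (0.0559). Of 53 genes of mitochondrial RNA processing, modification and decay, 50 were tested and none changed, beside 2.05% of all genes. Voom called none, beside 6.82%, and 6 had an unadjusted limma p under 0.05, beside 19.5% of all genes. Those with the lowest p were METTL17 (0.18, adjusted p = 0.179), a factor of ribosome assembly, MRM3 (-0.14, 0.186), which methylates MT-RNR2, and NSUN2 (-0.13, 0.197), a cytosine methyltransferase of tRNAs.

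The nuclear partners of the mitochondrial mRNAs lay below 0 to a similar extent. Of 72 nuclear genes for subunits of complexes I, III, IV and V, 70 were tested, 60 were below 0 (6442 of all 13585 genes), and the median log2 fold change was -0.11 (-0.50 to 0.20, beside 0.0095 for all genes). Without overlap, 31 of the 70 were lower, beside 12.3% of all genes, and 1 higher, beside 13.6%. By limma 3 of the 70 were called, beside 2.05%, and by voom 9, beside 6.82%. The study had itself examined this pathway on these libraries, so its direction is not independent evidence. The 3 genes called by limma all fell: ATP5MC1 of the ATP synthase ring, from 85.4 to 69.8 FPKM (-0.29, SE 0.0386, limma adjusted p = 0.0287), NDUFB2 of complex I, from 17.9 to 14.0 FPKM (-0.34, adjusted p = 0.0399), and COX6A1 of complex IV, from 81.4 to 62.9 FPKM (-0.37, adjusted p = 0.0425). Leaving out a library ended the call for 5 of the 6 libraries in ATP5MC1 and for each of the 6 in NDUFB2 and COX6A1. No filter and no trend also ended all 3 calls (adjusted p from 0.0593 to 0.122).

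Copies of mitochondrial DNA in the nuclear genome can share reads with the mitochondrial genes. The table held 407 such pseudogenes, of which 12 were tested and 1 changed, beside 2.05% of all genes. The 3 highest lie side by side on chromosome 1 and are near-identical to their mitochondrial sources: MTND2P28 (1:629640-630683) to MT-ND2 over 98.4% of aligned bases, MTCO1P12 (1:631074-632616) to MT-CO1 over 98.7%, and MTATP6P1 (1:633696-634376) to MT-ATP6 over 98.5%. How reads that match both places were assigned is not given in the sources used here, and the levels of both are uncertain to that extent.

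MTCO1P12 fell from 35.1, 33.1 and 31.4 FPKM to 24.6, 26.6 and 26.0 FPKM (log2 fold change -0.35, SE 0.0567, limma adjusted p = 0.0390), whereas MT-CO1 had -0.032, and the difference between the pair was not tested. The call of MTCO1P12 was lost without any 1 library (adjusted p from 0.0568 to 0.161), with no filter (0.0971) and without the trend (0.0794). MTND2P28 was at 166 ± 9.14 FPKM in the controls and 162 ± 8.31 FPKM in PRMT1 KD (SD, n = 3; -0.038, adjusted p = 0.768). MTATP6P1 was at 112 ± 11.3 and 96.2 ± 8.28 FPKM (-0.22, adjusted p = 0.246). The next 3 by level, MTND6P5, MTND1P11 and MTATP6P11, are 72.8% to 76.5% identical to their sources, averaged under 6 FPKM and had log2 fold changes of 0.12, 0.10 and -0.080, none past the test.

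**Figure D5:**
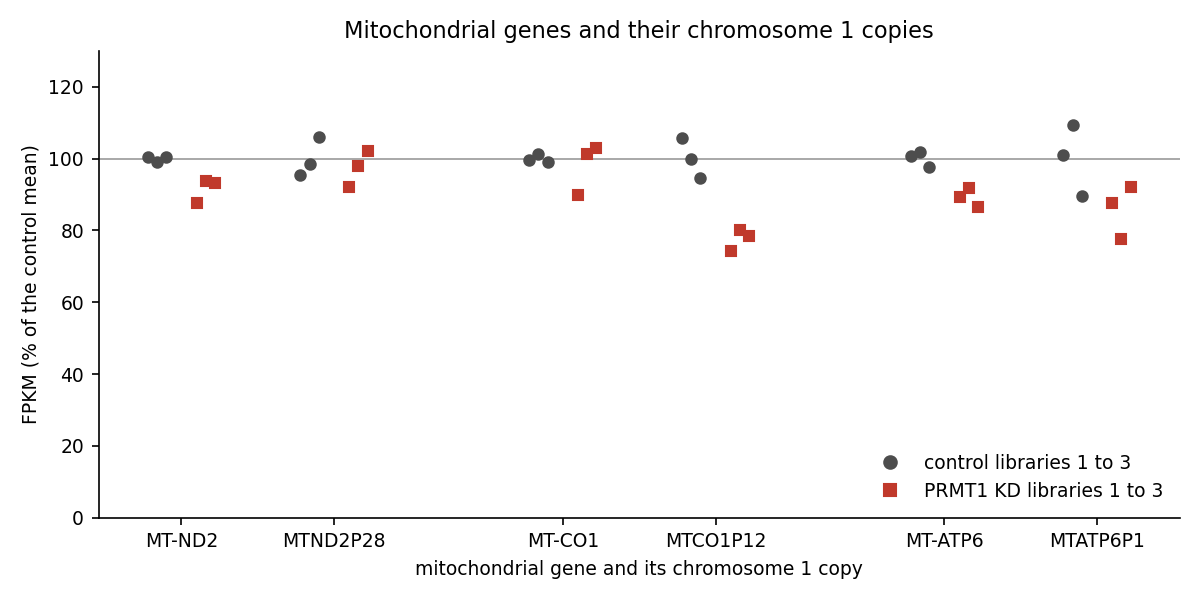
FPKM of MT-ND2, MT-CO1 and MT-ATP6 and of their chromosome 1 copies in each library, as a percentage of the gene's control mean. The PRMT1 KD mean was 91.5% for MT-ND2 and 97.4% for MTND2P28, 98.0% for MT-CO1 and 77.6% for MTCO1P12, and 89.2% for MT-ATP6 and 85.7% for MTATP6P1.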

How the data were processed

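Total RNA of MM.1S cells was extracted with TRIzol and sequenced on an Illumina platform in 6 libraries, grouped by the sample labels. The methods describe poly(A) capture and dUTP strand marking in a section shared with immunoprecipitated RNA, without saying which steps these libraries had. In the table that the authors deposited, each gene has an FPKM for every library beside its length in bases, position and type. The submitters' processing notes name featureCounts 1.5.0-p3 and hg38. The aligner, annotation release and strand setting are not given in the sources used here.

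Multiplying FPKM by gene length and dividing by 1 fixed step per library turned 100% of the non-zero values into whole reads (tolerance 0.01). The size each library was divided by equalled its median-of-ratios size factor times the geometric mean of the totals (ratio 1), so a scaling between libraries is built into the values.

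The 37 genes and all lists were chosen with earlier results of these data known. The test was limma 3.58.1 under R 4.3.3, on log2(FPKM + 1) of genes averaging at least 1 FPKM. It was two-sided, with a mean-variance trend in the empirical Bayes step and Benjamini-Hochberg adjustment across every tested gene, and an adjusted p under 0.05 was a call. This fit was tested on simulated data. Shares and ratios were compared with exact permutation tests in SciPy 1.17.1, for which 0.1 is the smallest two-sided p of 3 against 3. Wilson intervals and the floor of 3 reads cover counting error only. Named genes were every mRNA and rRNA gene, each tRNA gene averaging at least 10 reads, the 3 tRNA genes with the lowest p, PRMT1, the called genes of each nuclear list or else the 3 with the lowest p, and the 6 nuclear pseudogenes with the highest mean FPKM. The 7 tRNA genes outside this rule are given to account for all members. PRORP and FASTKD4 were looked up under the table's symbols KIAA0391 and TBRG4. Sequences came from GENCODE 29 transcripts. Alternatives were a pseudocount of 0.1, no filter or a filter at 10 reads, TPM over all or over nuclear genes, equal medians, no trend, the replicate number as a block, voom on reads, and each library left out.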

Additional observations from a re-analysis of the deposited data

How the results depend on the processing

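The counts of called genes moved most often. Among all genes tested, 279 were called. The count was 35 without a filter, 43 without the trend, 927 with voom and 13 (without control 1) to 95 (without control 3) with a library left out, while the other alternatives gave 204 to 355. Of the mitochondrial genes, 0 were called without a filter, with the filter at 10 reads or without the trend, 2 on TPM over all genes or over nuclear genes (MT-TC and MT-ND6), 6 with voom, and 0 with any library left out, each such fit resting on fewer samples. Over 30 mitochondrial genes and 15 alternatives, 413 of 450 log2 fold changes kept their direction and their side of the threshold, and 19, in 6 genes, changed sign. On equal medians these were MT-ATP8 (-0.015) and MT-TT (-0.0050). With a library left out, the values ran from -1.03 to 0.30 for MT-TI, -0.068 to 0.030 for MT-CO1, -0.036 to 0.049 for MT-ATP8, -0.58 to 0.24 for MT-TL2, -0.18 to 0.46 for MT-TE and -0.14 to 0.18 for MT-TT. Among nuclear copies they ran from -0.072 to 0.0056 for MTND2P28, -0.039 to 0.24 for MTND6P5 and -0.23 to 0.038 for MTATP6P11. The difference of PRMT1 KD minus control in the log2 ratio of rRNA to mRNA was 0.27 with MT-RNR2 left out. With a library left out it was -0.081 to 0.045. A further 12 of the 30 genes moved by over 1.5 times without changing sign when a library was left out, among them MT-CO2 (-0.18 to -0.046) and MT-ND3 (-0.21 to -0.060). The causes were not tested. Without PRMT1 KD 1 the share of reads on mitochondrial genes differed by -0.31 percentage points in place of -0.47, and without control 3 the log2 ratio of MT-RNR1 to MT-RNR2 differed by 0.48 in place of 0.31, with no change of direction.

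The libraries share only replicate numbers. After subtraction of the group means, libraries of equal number had correlations of 0.02, 0.0631 and 0.101 and the other pairs -0.0751 to 0.0186. Each pair of equal number thus lay above every other pair, though all values were small. They do not settle whether the numbers pair the libraries, and the main fit left the numbers out. With the number as a block, 3496 genes had an unadjusted limma p under 0.05, beside 2655 without it. A replicate block left 204 genes called over the whole table and 1 mitochondrial gene, MT-TH (0.30, limma adjusted p = 0.0495), in place of MT-TC (adjusted p = 0.0711). The block also ended the calls of NDUFB2 (0.0539) and MTCO1P12 (0.0589). Paired differences of the shares and ratios had the same values, and 3 pairs cannot give an exact p below 0.25. Groups of 3 also limit the precision, since no single share or ratio can reach an exact p below 0.1, and tRNA genes with under 10 reads rest on few counts.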
